A study of Homo sapiens with 12 samples.

Results

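Of 58302 genes counted, 31 neuroendocrine and neurosecretory genes are described here. They were chosen by name as genes of neuroendocrine cells and of regulated secretion, with earlier results of these data known. Their share of calls beside that of all genes is therefore descriptive only. Each member matched 1 Ensembl ID. Polyadenylated RNA was sequenced from PC3 and 22Rv1, established human prostate cancer cell lines. PC3 grew from a bone metastasis and lacks androgen receptor activity, and 22Rv1 came from a xenograft and makes androgen receptor. Each line carried IRES-eGFP alone as control, ETV4WT-IRES-eGFP (wild-type ETV4) or ETV4AAA-IRES-eGFP (mutated ETV4, with the changed residues not given in the sources used here), delivered by lentivirus with an MSCV vector. Cells that were eGFP positive and DAPI negative (alive) were sorted 1 week after infection, in controls as in ETV4 groups, so every group is infected and sorted and none is untreated. Each of the 6 groups holds n = 2 libraries, with their origin in separate cultures not given in the sources used here. P-values therefore cover the spread of the libraries only, which may be technical. Each line stands for 1 tumour, and the design compares the constructs within a line and the lines with each other.

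Neuroendocrine cells of the prostate store peptides and amines in dense-core granules. Granins (CHGA, CHGB, SCG2) aggregate in the trans-Golgi, prohormone convertases (PCSK1, PCSK2) and CPE cut and trim the cargo, and SNARE proteins (SNAP25, STX1A) with synaptotagmins, calcium sensors or regulators of membrane fusion, release it. REST, a repressor, silences many of these genes outside neurons by binding the RE1 element, and the splicing factor SRRM4 can switch REST to an inactive form. ETV4 is an ETS-family transcription factor, and ETS factors bind DNA at a GGAA core.

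Totals were 43572713 to 51199207 counts in PC3 and 41698738 to 50226044 in 22Rv1. ETV4 checked the labels: in 22Rv1 it was 31.2 and 24.9 CPM (the depth-scaled count, with library sizes scaled by TMM) under eGFP, 385 and 484 under ETV4WT, and 390 and 281 under ETV4AAA. In PC3 it was 116 and 126 CPM with eGFP, 215 and 112 in the libraries labelled ETV4WT, and 223 and 109 in those labelled ETV4AAA, so replicate 2 of each PC3 construct did not exceed its control. Counts of members called are therefore also given without those 2 libraries. KRT19 was low in the same libraries, at 231.5 and 108.2 CPM with ETV4WT and 264.5 and 124 with ETV4AAA, against 218.5 and 242.7 with eGFP. EGR1 was 4.48 and 4.06 CPM in the PC3 ETV4WT libraries, and at most 0.242 CPM in PC3 eGFP and ETV4AAA. The reason for the low ETV4 was not tested. Replicates of PC3 eGFP differed least, at 3.5 in chi-square per degree of freedom, against 22.4 to 62.8 in the other groups. KLK3, the prostate-specific antigen gene of 22Rv1, had 0 counts in every PC3 library.

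Of the 31 members, 26 had enough counts to be tested. POU3F4, a brain POU-domain factor, had 0 counts in all 12 libraries. NEUROD1, a neuroendocrine lineage factor, had 2 counts over the PC3 ETV4WT group, 1 over 22Rv1 ETV4AAA and 0 in the other 4 groups. PCSK2 reached at most 6 counts over a group, ELAVL3 (a neuronal RNA-binding protein) at most 14, and STMN2 (a microtubule regulator of growing axons) at most 8. At levels this low a modest difference was not detectable.

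The control lines already differed across most of the set (plot of member levels by library). Of the 26 tested, 15 were higher and 7 lower in 22Rv1 eGFP than in PC3 eGFP, with a median log2 difference of 3.0. Across all tested genes 70.9% were called in that comparison (adjusted p under 0.05, edgeR quasi-likelihood test), with a median of 0.00. Scaled to exon length, the highest members in 22Rv1 eGFP were VGF at 101, SYT4 at 93.5 and ENO2 at 77 CPM per kb. In PC3 eGFP the order was led by UCHL1 at 234, with REST next at 12.1 and ENO2 at 10 CPM per kb.

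**Figure D1:**
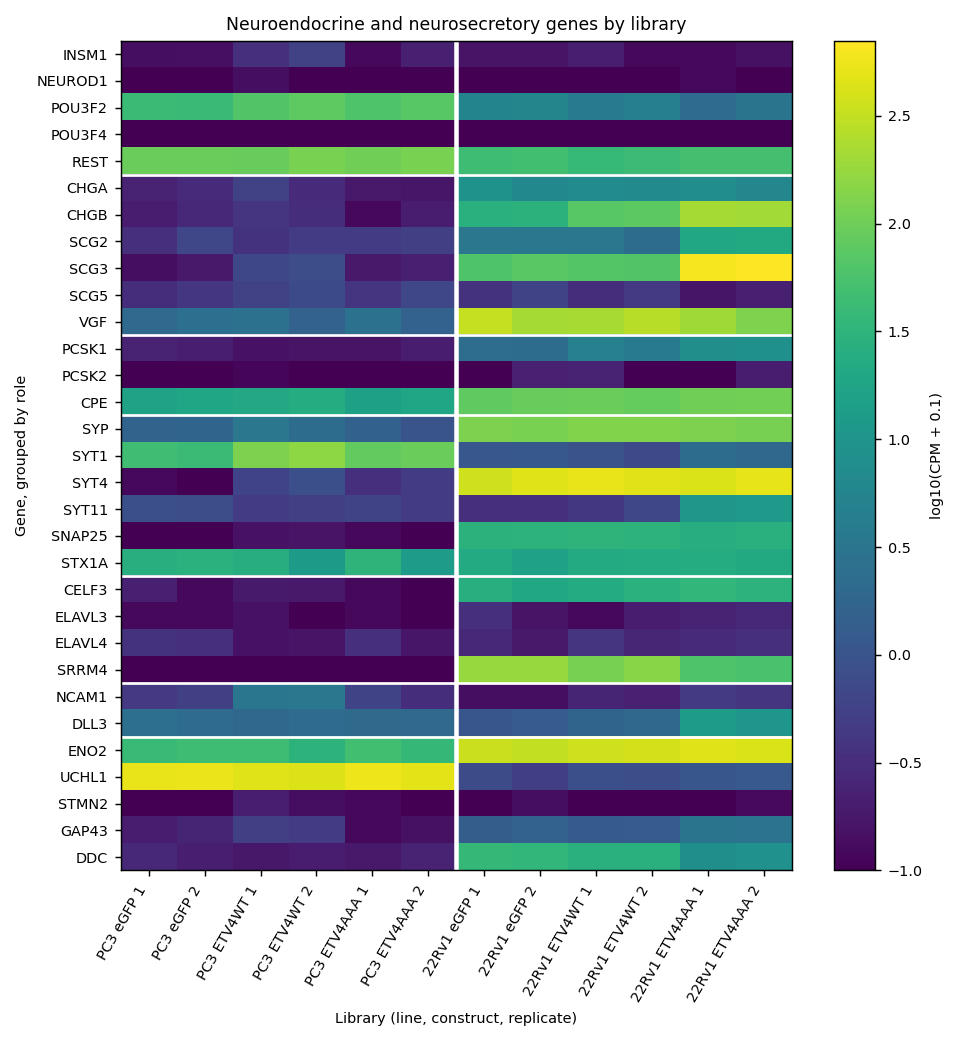
Level of each of the 31 genes (rows, grouped by role) in each of the 12 libraries (columns), as log10(CPM + 0.1). The white vertical line separates PC3 from 22Rv1. UCHL1, REST, POU3F2 and SYT1 are brighter in PC3, and VGF, SYT4, SYP, ENO2, CPE and SRRM4 in 22Rv1, while SCG3 and CHGB are brightest in 22Rv1 ETV4AAA.

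SRRM4 separated the lines completely, at 182 and 179.6 CPM in 22Rv1 eGFP and 0 counts in every PC3 library, which makes it at least 5805-fold higher (floor of 3 counts over the group). SNAP25, a membrane SNARE, stood at 29.4 and 30.2 CPM in 22Rv1 eGFP against 0 counts in PC3 eGFP, at least 955-fold higher. SYT4, a synaptotagmin of dense-core vesicles, had 40380 counts in 22Rv1 eGFP and 1 in PC3 eGFP. SYP, a vesicle membrane protein, was 124 and 117 CPM in 22Rv1 eGFP and 1.57 and 1.66 CPM in PC3 eGFP (log2 difference 6.22 ± 0.23, adjusted p = 3.75e-10). The opposite order held for UCHL1, a ubiquitin hydrolase of neurons, at 0.677 and 0.412 CPM in 22Rv1 eGFP and 524 and 545 CPM in PC3 eGFP (-9.93 ± 0.21, adjusted p = 2.04e-11). It also held for the calcium sensor SYT1, for NCAM1, DLL3, POU3F2 and SYT11, and for REST, which was 44.7 and 47.9 CPM in 22Rv1 and 97.1 and 96.2 CPM in PC3 (-1.06 ± 0.15, adjusted p = 3.59e-05). Classical markers were thus divided between the lines, and neither line held all of them.

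Cargo and processing genes were among those higher in 22Rv1 eGFP. CHGA was 9.03 and 6.24 CPM there and 0.141 and 0.193 CPM in PC3 eGFP (5.50 ± 0.36, adjusted p = 5e-08). VGF, a precursor of several neuropeptides, was 329 and 215 CPM against 1.97 and 2.43 in PC3 eGFP (6.95 ± 0.38, adjusted p = 8.94e-09). SCG3, which tethers granins to the granule membrane, was 60.8 and 73.4 CPM against 0.0403 and 0.086 (10.01 ± 0.26, adjusted p = 4.11e-11). The 22Rv1 and PC3 libraries did not overlap for any of these 3 genes. CELF3 (a neuronal splicing regulator), DDC (the decarboxylase that makes dopamine and serotonin), GAP43 (a growth cone protein), PCSK1, CPE, SCG2, CHGB and ENO2 (neuron-specific enolase) were likewise higher in 22Rv1 eGFP. INSM1, SCG5, STX1A and ELAVL4 did not pass the test. STX1A passed as lower in 22Rv1 with the eGFP libraries fitted alone (-0.46, adjusted p = 0.0440) and with a replicate block (-0.85, adjusted p = 0.0368).

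Sequence before the start of 4 of these genes follows, from RefSeq on GRCh38.p14, read 5′ to 3′ on each gene's own strand. SCG3, PCSK1 and SYT11 rose together in 22Rv1 with ETV4AAA. VGF is a cargo gene that did not pass the test there, though it passed as lower under some alternatives. The set thus puts both kinds side by side. The window searched is the 250 bases before the RefSeq start, which lies inside the GENCODE 29 gene, by 150 bases in SCG3, 895 in PCSK1, 58 in SYT11 and 24 in VGF, and bases in a GENCODE exon are not printed. Capitals mark every match, on either strand, to CCGGAA and AGGAAG (extended GGAA cores), to AGCACC and GGACAG (the left and right parts of RE1) and to TGACGTCA (the cyclic AMP response element, CRE, a motif added after the data were seen).
SCG3, chr15:51681253-51681352, plus strand: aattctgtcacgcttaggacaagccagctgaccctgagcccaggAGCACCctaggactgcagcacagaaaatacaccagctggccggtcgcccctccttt
PCSK1, chr5:96433281-96433498, minus strand: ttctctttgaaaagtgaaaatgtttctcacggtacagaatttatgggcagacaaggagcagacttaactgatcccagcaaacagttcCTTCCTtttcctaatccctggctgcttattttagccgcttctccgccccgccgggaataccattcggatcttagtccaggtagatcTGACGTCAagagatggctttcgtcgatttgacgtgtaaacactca
SYT11, chr1:155859401-155859508, plus strand: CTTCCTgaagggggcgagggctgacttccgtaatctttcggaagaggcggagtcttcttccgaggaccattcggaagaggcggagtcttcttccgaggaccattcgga
VGF, chr7:101165594-101165819, minus strand: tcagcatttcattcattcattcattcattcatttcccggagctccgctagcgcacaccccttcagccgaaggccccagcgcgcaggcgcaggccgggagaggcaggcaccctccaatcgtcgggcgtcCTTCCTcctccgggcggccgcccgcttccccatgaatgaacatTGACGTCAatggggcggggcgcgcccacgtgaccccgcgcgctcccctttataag

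AGGAAG on the minus strand (CTTCCT as printed) began 163 bases before the RefSeq start in PCSK1, 166 in SYT11 and 122 in VGF. In SCG3 it occurred 3 times, 70, 66 and 58 bases before the RefSeq start, where the first and second share bases, and these lie in the first exon of the GENCODE gene. The CRE was found in PCSK1, VGF and CHGA, at 77, 79 and 54 bases before the RefSeq start, in CHGA within the first exon of the GENCODE gene. Of the 31 members, 23 had an entry in the promoter table, and the 8 without one were INSM1, CHGB, SCG2, SNAP25, ELAVL3, NCAM1, DLL3 and STMN2. AGGAAG was found in 39.1% of the 23 and in 28.7% of all 27305 windows, and CCGGAA in 8.7% and 14.8%. The CRE was in 13.0% of members (3 genes) and 1.8% of all windows. AGCACC was in 13.0% and 12.9%, and GGACAG in 13.0% and 17.1%, and the pair spaced 2 bases apart was in 0 of 23 and in 0.055% of all windows. These are letter matches in a short window, whose place depends on the start used, and no measure of binding.

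In 22Rv1 with ETV4AAA, 14 of the 26 tested members changed, 10 upward and 4 downward, against 31.8% of all tested genes (17.4% higher, 14.4% lower). The median log2 change was 0.37 over the members and 0.00 over all genes. Granins SCG3, CHGB and SCG2, the convertase PCSK1, the synaptotagmins SYT11 and SYT1, the surface proteins DLL3 and NCAM1, and GAP43 and UCHL1 rose. POU3F2, SCG5, SRRM4 and DDC fell. The libraries of both groups lay apart for all 14. They also lay apart for uncalled members such as VGF, CPE, SNAP25, ENO2 and REST, so this adds nothing to the calls. Comparisons of ETV4WT and ETV4AAA with eGFP share the eGFP libraries of their line. In bulk RNA, a change in the number of cells that express a gene and a change in RNA per cell cannot be told apart.

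SCG3 (ENSG00000104112, chromosome 15, 51681353–51721031, plus strand, GRCh38 with GENCODE 29, as for all positions given) in 22Rv1 was 60.8 and 73.4 CPM under eGFP, 65.5 and 63.6 under ETV4WT, and 627 and 705 under ETV4AAA. Both ETV4AAA libraries stood far above the other 4, which overlapped, and the log2 change against eGFP was 3.31 ± 0.15, adjusted p = 1.58e-08. CHGB (ENSG00000089199, chromosome 20, 5911430–5925361, plus strand) was 27.5 and 29.9 CPM under eGFP, 70.4 and 75.7 under ETV4WT, and 213 and 206 under ETV4AAA, a graded order in which no library of a group reached the next (2.87 ± 0.17, adjusted p = 1.26e-07 for ETV4AAA against eGFP). SCG2, the precursor of secretoneurin, was 3.26 and 3.38 CPM under eGFP, 3.24 and 2.23 under ETV4WT, and 19.6 and 21.8 under ETV4AAA (2.64 ± 0.25, adjusted p = 7.46e-06). With SCG3 at 201 CPM per kb, against 20.2 with eGFP, it became the highest member by that scale in ETV4AAA cells.

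CHGA, in contrast, had overlapping groups, at 9.03 and 6.24 CPM under eGFP, 7.03 and 6.84 under ETV4WT, and 7.7 and 6.03 under ETV4AAA (-0.15 ± 0.24, adjusted p = 0.687). VGF was 329 and 215 CPM with eGFP and 198 and 129 CPM with ETV4AAA, groups that lay apart but did not pass the test (-0.74 ± 0.28, adjusted p = 0.0685). VGF passed as lower with no low-count filter (-0.70, adjusted p = 9.43e-05), under DESeq2's Wald test (-0.72, adjusted p = 0.0428) and with 22Rv1 fitted on its own (-0.71, adjusted p = 0.0182). It also passed with a replicate block (-0.74, adjusted p = 0.0366). SCG5, a chaperone of PCSK2, was low throughout and fell, from 0.267 and 0.515 to 0.0665 and 0.119 CPM (-2.06 ± 0.59, adjusted p = 0.0191). This call was lost when eGFP replicate 2 or either ETV4AAA library was left out. Among the processing enzymes, PCSK1 was 2.26 and 2.16 CPM under eGFP, 4.57 and 3.84 under ETV4WT, and 7.88 and 8.38 under ETV4AAA (1.88 ± 0.17, adjusted p = 4.99e-06). CPE was 81.3 and 88.5 CPM with eGFP and 103 and 107 CPM with ETV4AAA (0.31 ± 0.13, adjusted p = 0.0972), which did not pass.

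**Figure D2:**
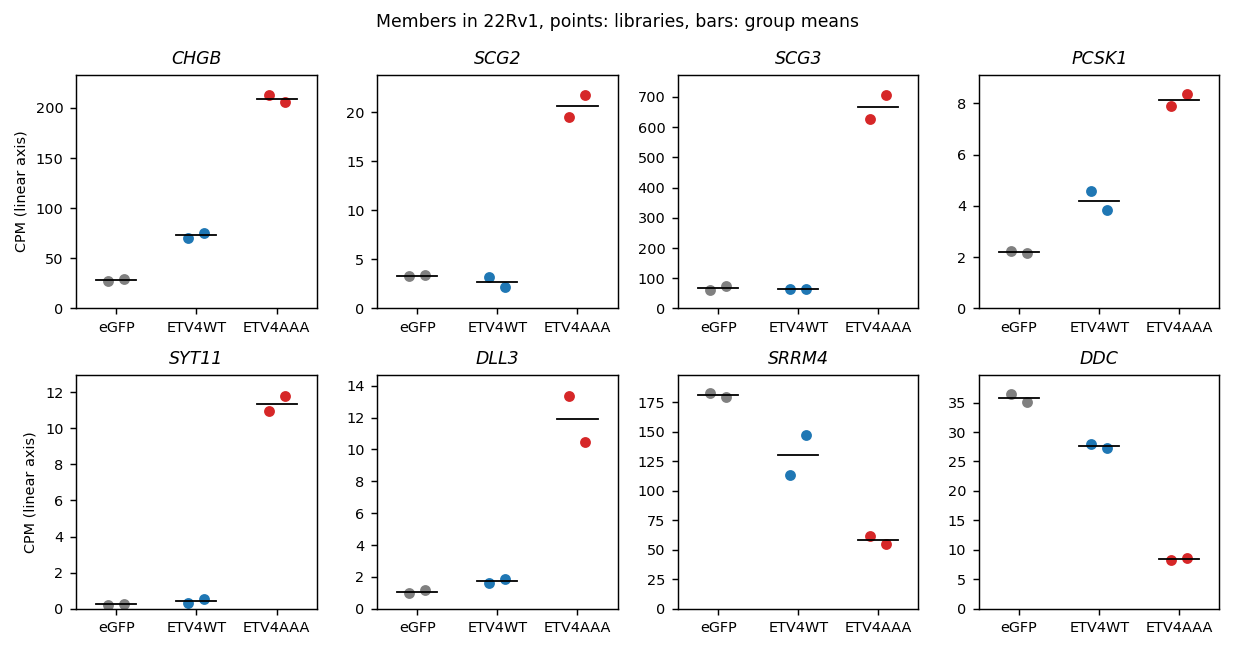
CPM on linear axes in 22Rv1 for 8 genes, 1 panel each, with 1 point per library and a bar at each group mean. The 6 genes CHGB, SCG2, SCG3, PCSK1, SYT11 and DLL3 are highest in the ETV4AAA libraries, and SRRM4 and DDC are lowest there.

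In the release machinery, SYT11 (ENSG00000132718, chromosome 1, 155859509–155885199, plus strand), a synaptotagmin that does not bind calcium, had the largest log2 rise of the members. It was 0.226 and 0.247 CPM under eGFP, 0.327 and 0.551 under ETV4WT, and 11 and 11.8 under ETV4AAA, so that only the ETV4AAA libraries passed 1 CPM (5.57 ± 0.26, adjusted p = 2e-08). SYT1 was 1.03 and 1.03 CPM under eGFP, 0.849 and 0.612 under ETV4WT, and 2.2 and 1.85 under ETV4AAA (0.98 ± 0.20, adjusted p = 0.00286). SYT4 stood at 370.4 and 459.6 CPM under eGFP, 532 and 475 under ETV4WT, and 425 and 509 under ETV4AAA, with overlapping groups (0.17 ± 0.17, adjusted p = 0.501). SYP (124 and 117 CPM under eGFP against 124 and 116 under ETV4AAA, adjusted p = 1), SNAP25 (-0.18 ± 0.16, adjusted p = 0.44) and the SNARE STX1A (0.25 ± 0.37, adjusted p = 0.659) did not pass either. STX1A shares 662 exon bases with BUD23 on the opposite strand, and the strand setting of the counting is not given, so its counts are uncertain. Of the 31 members 12 share exon bases with another gene, 10 of them on the opposite strand, among them REST with NOA1 (23 bases).

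At the cell surface DLL3 (ENSG00000090932, chromosome 19, 39498895–39508481, plus strand), an inhibitory Notch ligand, was 0.985 and 1.17 CPM under eGFP, 1.61 and 1.86 under ETV4WT, and 13.4 and 10.5 under ETV4AAA. Both ETV4AAA libraries exceeded all others (3.46 ± 0.20, adjusted p = 1.14e-07). NCAM1, a neural adhesion molecule, was 0.041 and 0.0412 CPM with eGFP and 0.355 and 0.285 CPM with ETV4AAA, from 4 to 28 counts over the group (2.89 ± 0.60, adjusted p = 0.00292). GAP43 was 1.27 and 1.5 CPM under eGFP against 2.97 and 2.8 under ETV4AAA (1.06 ± 0.20, adjusted p = 0.00151). UCHL1 was 0.677 and 0.412 CPM under eGFP against 0.954 and 1.09 under ETV4AAA (0.90 ± 0.22, adjusted p = 0.00823), and its call was lost without eGFP replicate 2 or without ETV4AAA replicate 2. ENO2 was 346 and 313 CPM with eGFP and 461 and 432 CPM with ETV4AAA and did not pass (0.44 ± 0.17, adjusted p = 0.0742), but passed with no low-count filter (0.47, adjusted p = 0.00922) and with 22Rv1 fitted on its own (0.46, adjusted p = 0.0118).

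Of the regulators among the members, SRRM4 and POU3F2 fell and REST, INSM1, CELF3 and ELAVL4 did not pass the test. SRRM4 (ENSG00000139767, chromosome 12, 118981495–119163051, plus strand) was 182 and 179.6 CPM under eGFP, 113 and 148 under ETV4WT, and 62.1 and 55 under ETV4AAA, an order without overlap in which ETV4AAA was lowest (-1.63 ± 0.16, adjusted p = 7.04e-05). POU3F2, a neural POU-domain factor, was 5.27 and 5.66 CPM under eGFP, 3.83 and 4.55 under ETV4WT, and 2.11 and 2.94 under ETV4AAA (-1.12 ± 0.19, adjusted p = 0.000809). REST, whose splicing SRRM4 controls, was 44.7 and 47.9 CPM under eGFP, 37.2 and 42.7 under ETV4WT, and 51.9 and 51.3 under ETV4AAA (0.16 ± 0.14, adjusted p = 0.458), and gene counts do not separate its splice forms. INSM1, a zinc-finger factor of endocrine cells, held 6 counts over the eGFP group and 3 over the ETV4AAA group. CELF3 was 0.50 ± 0.22, adjusted p = 0.113, and it passed with no low-count filter (0.54, adjusted p = 0.0483) and with 22Rv1 fitted on its own (0.53, adjusted p = 0.0236). ELAVL4, another neuronal RNA-binding protein, was 0.81 ± 0.58, adjusted p = 0.328. DDC fell from 36.4 and 35.2 CPM with eGFP through 28 and 27.3 CPM with ETV4WT to 8.21 and 8.69 CPM with ETV4AAA (-2.08 ± 0.17, adjusted p = 1.64e-06 for ETV4AAA).

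Several genes chosen as line markers changed as well. Of 10 PC3 line markers, 8 rose in 22Rv1 ETV4AAA and their summed level went from 348.1–405.7 CPM with eGFP to 930.3–955.5 CPM. Of these, TGFBI was 269 and 264 CPM there and at most 0.161 CPM in PC3, so it did not mark PC3 in these data. Neither did LGALS1 (271 and 202 CPM in 22Rv1 eGFP, 178 and 188 in PC3 eGFP) or F3 (4.55 and 4.65, 4.55 and 4.17). The ETV4AAA sum is mostly CD44 (430.5 and 426.9 CPM, against 401 and 395 in PC3 eGFP), TGFBI and LGALS1. VIM was 11.7 and 12.5 CPM there against 481 and 473 in PC3 eGFP, and ANXA1 1.95 and 2.59 against 328 and 317. Of 10 luminal markers of 22Rv1, 1 rose and 6 fell, with sums of 2759–2768 and 1852–1937 CPM. UCHL1, at 524 to 545 CPM in PC3 eGFP, was in 22Rv1 ETV4AAA at 0.191% of its PC3 level, and at 0.102% in 22Rv1 eGFP. Among the members that rose, SCG3, CHGB, SCG2, PCSK1, SYT11, DLL3 and GAP43 were lower in every PC3 library than in both 22Rv1 ETV4AAA libraries. SYT1 and UCHL1 were higher in every PC3 library, and NCAM1 overlapped. The 6 immune markers summed to 1.585–1.846 CPM with eGFP and 8.353–9.229 CPM with ETV4AAA. The 6 stromal and endothelial markers summed to 4.755–7.242 and 8.21–11.27 CPM, and PECAM1 and CDH5 had 0 counts under eGFP, and PECAM1 had 60 under ETV4AAA. The part of these markers, and of any reads from PC3, in the changes was not tested.

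With ETV4WT, 22Rv1 showed few changes. Of the 26 members, 2 rose and 0 fell, against 1.5% of all tested genes, and at an unadjusted p under 0.05 the numbers were 5 and 3. DESeq2's Wald test also called 2 up and 0 down. CHGB rose from 27.5 and 29.9 to 70.4 and 75.7 CPM (1.35 ± 0.16, adjusted p = 0.00112) and PCSK1 from 2.26 and 2.16 to 4.57 and 3.84 CPM (0.93 ± 0.17, adjusted p = 0.0192), with no overlap between libraries. The PCSK1 call was lost when either eGFP library or ETV4WT replicate 1 was left out, and the CHGB call was kept in all 9 alternatives tried. DLL3 was 0.985 and 1.17 CPM with eGFP and 1.61 and 1.86 CPM with ETV4WT, which did not pass (0.68 ± 0.21, adjusted p = 0.164). SCG3, at 65.5 and 63.6 CPM, lay within its control libraries (-0.06 ± 0.14, adjusted p = 0.904).

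Compared directly, ETV4AAA exceeded ETV4WT in 22Rv1 for 8 members and was lower for 3, where 23.5% of all tested genes were called. This comparison shares its ETV4AAA and ETV4WT libraries with those against eGFP. The higher members were SYT11 (4.68 ± 0.24, adjusted p = 5.97e-08), SCG3 (3.37), SCG2 (2.92), DLL3 (2.78), CHGB (1.52), SYT1 (1.47), GAP43 (1.30) and PCSK1 (0.95), all as log2 differences. The lower ones were DDC (-1.71), SRRM4 (-1.15) and POU3F2 (-0.73), the last lost without ETV4WT replicate 2 or ETV4AAA replicate 1. For NCAM1 (1.21 ± 0.47, adjusted p = 0.0859), UCHL1 (0.43 ± 0.21, adjusted p = 0.177) and SCG5 (-1.60 ± 0.62, adjusted p = 0.0888) the difference between the constructs did not pass. That of SCG5 passed with no low-count filter (-1.56, adjusted p = 0.0490) and with a replicate block (-1.59, adjusted p = 0.0358).

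In PC3 with ETV4WT, 10 members rose and 2 fell of 26, against 23.4% of all tested genes (12.7% higher, 10.7% lower), and the median log2 change was 0.33 over members and 0.00 over all genes. SYT1, POU3F2 and CPE rose from levels above 10 CPM, while NCAM1, SYP, SCG3, SYT4, GAP43, INSM1 and SNAP25 rose and ended below 4 CPM. SYT11 and ELAVL4 fell. DESeq2's Wald test called 9 up and 0 down. In the fits that end this paragraph, calls over all genes fell as well. Without the 2 construct libraries of replicate 2, 8 members were called, each of them higher. With either eGFP library left out 5 were called, and 7 without ETV4WT replicate 2.

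SYT1 (ENSG00000067715, chromosome 12, 78863993–79452008, plus strand) in PC3 was 46.1 and 42.6 CPM under eGFP, 122 and 155 under ETV4WT, and 83.1 and 92 under ETV4AAA. All 3 groups lay apart, with ETV4WT highest (1.64 ± 0.16, adjusted p = 2.15e-05 against eGFP). POU3F2 was 42 and 39.6 CPM under eGFP, 62.7 and 76.9 under ETV4WT, and 60.9 and 70.5 under ETV4AAA, and both ETV4 groups exceeded eGFP and overlapped each other (0.77 ± 0.17, adjusted p = 0.00666 for ETV4WT). NCAM1 (ENSG00000149294, chromosome 11, 112961247–113278436, plus strand) was 0.342 and 0.43 CPM under eGFP, 3.12 and 3.36 under ETV4WT, and 0.514 and 0.215 under ETV4AAA. Both ETV4WT libraries exceeded all other PC3 libraries, and eGFP and ETV4AAA overlapped (3.06 ± 0.29, adjusted p = 1.9e-05). SCG3 showed the same order at a low level, 0.0403 and 0.086 CPM under eGFP, 0.576 and 0.724 under ETV4WT, and 0.0822 and 0.119 under ETV4AAA (3.32 ± 0.36, adjusted p = 5.07e-05). It stayed far below the 22Rv1 level of that gene.

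**Figure D3:**
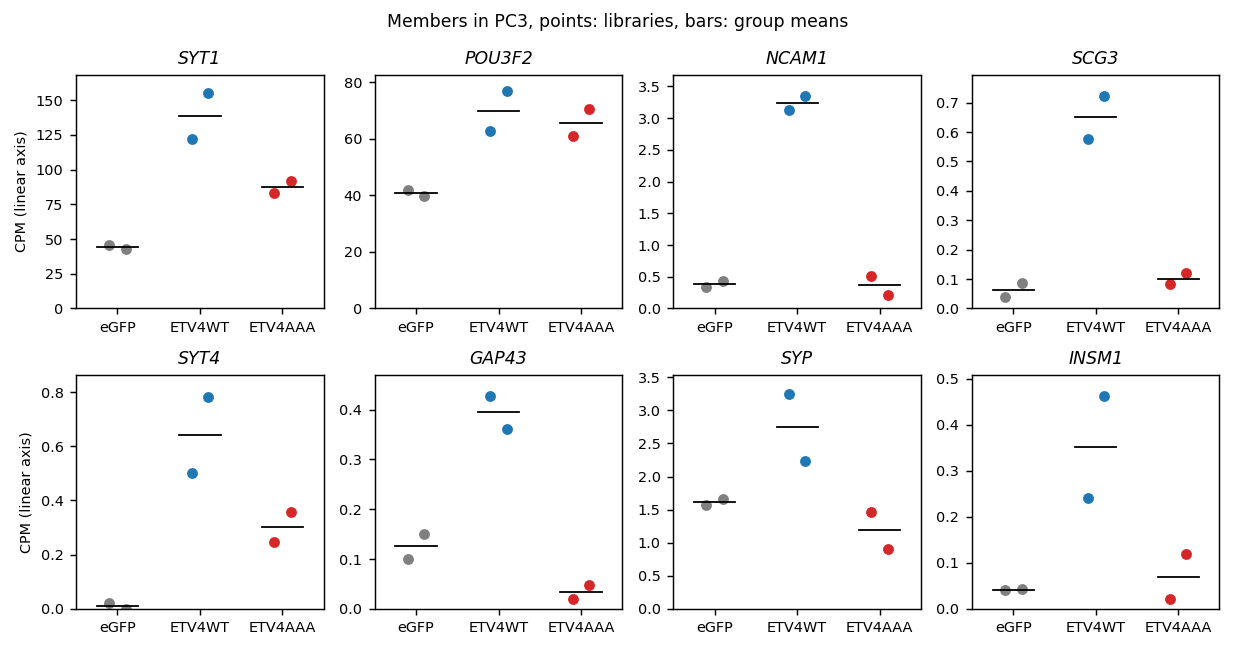
CPM on linear axes in PC3 for 8 genes, 1 panel each, with 1 point per library and a bar at each group mean. ETV4WT is highest in each panel by group mean. For POU3F2, SYT1 and SYT4 both ETV4AAA libraries are also above eGFP. The scales of SCG3, SYT4, GAP43 and INSM1 end below 1 CPM.

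SYT4 rose from 1 count over the eGFP group to 66 over ETV4WT, a ratio of pooled counts of 61.3 (95% exact interval 10.6 to 2458, counting error only). SNAP25 rose from 0 to 6 counts, at least 1.86-fold. STMN2, untested, went from 0 to 8 counts. SYP was 1.57 and 1.66 CPM under eGFP, 3.25 and 2.23 under ETV4WT, and 1.46 and 0.908 under ETV4AAA (0.77 ± 0.21, adjusted p = 0.0222), GAP43 was 0.101 and 0.15 CPM with eGFP and 0.427 and 0.362 CPM with ETV4WT (1.64 ± 0.36, adjusted p = 0.00618), and INSM1 was 0.0403 and 0.043 CPM against 0.242 and 0.462 under ETV4WT (2.99 ± 0.73, adjusted p = 0.0117). CPE was 16.4 and 18 CPM under eGFP, 21.2 and 24.4 under ETV4WT, and 15.5 and 18.3 under ETV4AAA (0.41 ± 0.13, adjusted p = 0.047). In all of the tested genes among these the ETV4WT libraries lay above both eGFP libraries, as they did for the uncalled CHGA and CHGB.

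SYT11 fell from 0.785 and 0.709 to 0.39 and 0.442 CPM (-0.84 ± 0.28, adjusted p = 0.046) and ELAVL4 from 0.262 and 0.236 to 0.0558 and 0.0603 CPM (-2.06 ± 0.64, adjusted p = 0.0368). Both calls were lost under DESeq2's Wald test, when PC3 was fitted on its own, and with any of the 4 libraries compared left out, and SYT11 also under DESeq2 size factors and with no low-count filter. INSM1 and SNAP25 were lost without either eGFP library, without ETV4WT replicate 2 and without both doubted replicate 2 construct libraries, and CPE under the same omissions and when PC3 was fitted on its own. SYP was lost without either eGFP library, without ETV4WT replicate 1 and when PC3 was fitted on its own. GAP43 was lost without eGFP replicate 1, and POU3F2 without eGFP replicate 2 or ETV4WT replicate 2. SCG3, SYT1, SYT4 and NCAM1 kept their calls in all 10 alternatives tried.

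The rest of the set did not pass in PC3 ETV4WT. UCHL1, the highest member per kb, was 524 and 545 CPM under eGFP, 465 and 441 under ETV4WT, and 558 and 498 under ETV4AAA (-0.24 ± 0.13, adjusted p = 0.226). REST was 97.1 and 96.2 CPM under eGFP, 90.8 and 118 under ETV4WT, and 102 and 120.5 under ETV4AAA, with overlapping groups (0.11 ± 0.14, adjusted p = 0.631). ENO2 (-0.18), STX1A (-0.53), DLL3 (-0.18) and VGF (-0.08) gave small log2 differences. STX1A, at 25.2 and 12.5 CPM with ETV4WT and 31.4 and 12.8 with ETV4AAA, was low in replicate 2 of both constructs. CHGA (1.04 ± 0.48, adjusted p = 0.141) and CHGB (0.88 ± 0.39, adjusted p = 0.158) lay under 0.5 CPM in every PC3 library. CHGA passed without ETV4WT replicate 2 (1.53, adjusted p = 0.0452), without both doubted replicate 2 construct libraries (1.61, adjusted p = 0.0351) and with no low-count filter (1.15, adjusted p = 0.0491), and was 0.27 without ETV4WT replicate 1 (adjusted p = 0.786). PCSK1, SCG2, SCG5, CELF3 and DDC did not pass and lay under 1 CPM in every PC3 library, although SCG5 passed with no low-count filter (1.15, adjusted p = 0.0347).

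SRRM4, high in 22Rv1, had 0 counts over the PC3 ETV4WT group, where the floor of 3 counts equals 0.016% of its 22Rv1 eGFP level. Among 22Rv1 markers, TMPRSS2 went from 0 to 14 counts and KLK2 from 0 to 6, and SLC45A3 and EPCAM fell. The summed level of the 10 markers was 750.1–790 CPM with eGFP and 508.6–616.2 CPM with ETV4WT, but it is mostly HOXB13 (584 and 626 CPM in PC3 eGFP, 715 and 598 in 22Rv1 eGFP) and EPCAM (116 and 114 and 77.2 and 92.2 CPM, in that order), which did not mark 22Rv1 in these data. Of the 10 PC3 line markers, CAV2 and CAV1 rose and F3 fell, with sums of 1627–1642 and 1612–1719 CPM. Immune markers summed to at most 0.706 CPM, and stromal and endothelial markers to 29.94–30.33 CPM with eGFP and 22.78–27.99 CPM with ETV4WT. The part of SRRM4, of these markers and of any reads from 22Rv1 in the changes was not tested.

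With ETV4AAA in PC3, 3 members rose and 0 fell, against 3.69% of all tested genes, and at an unadjusted p under 0.05 the numbers were 3 and 3. DESeq2's Wald test gave 3 and 0. Calls over all genes also fell in the fits with libraries left out that are given below in this paragraph. SYT1 (0.98 ± 0.16, adjusted p = 0.00427) and POU3F2 (0.69 ± 0.17, adjusted p = 0.0485) rose with both ETV4AAA libraries above both eGFP libraries, at the levels given above. SYT4 went from 1 to 27 counts, a ratio of 28.7 (95% exact interval 4.73 to 1175). Without the 2 replicate 2 construct libraries 2 members were called, without eGFP replicate 1 there was 1, and without eGFP replicate 2 there were 0.

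ETV4AAA was lower than ETV4WT in PC3 for 8 members and higher for 0, where 11% of all tested genes were called (3.65% higher, 7.32% lower). At an unadjusted p under 0.05 the numbers were 11 lower and 0 higher, and 7 and 0 by DESeq2's Wald test. Every fit with libraries left out called fewer of all genes than the fit with all 12 libraries. The lower members were NCAM1 (-3.11 ± 0.29, adjusted p = 3.68e-05), SCG3 (-2.67), INSM1 (-2.34), CHGB (-2.13), CHGA (-2.12), SYP (-1.20), SYT1 (-0.66) and GAP43, as log2 differences. GAP43 had 3 counts over the ETV4AAA group and 41 over ETV4WT, a ratio of 0.0837 (95% exact interval 0.0166 to 0.263). CHGA stood at 0.483 and 0.201 CPM under ETV4WT against 0.0822 and 0.0717 under ETV4AAA, and CHGB at 0.279 and 0.221 against 0.0205 and 0.0956 CPM. Of these 8, NCAM1, SCG3, SYP and GAP43 kept their calls in all 10 alternatives, and INSM1, CHGA, CHGB and SYT1 were among those lost without ETV4AAA replicate 1. Without the 2 replicate 2 libraries 6 were called, and without ETV4AAA replicate 1 there were 4.

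The constructs thus ranked in opposite ways for several members. SCG3, CHGB, SYT1 and GAP43 were higher with ETV4AAA than with ETV4WT in 22Rv1, and lower in PC3. In PC3, CHGB held 5 counts over ETV4AAA and 26 over ETV4WT, and SCG3 and GAP43 were low as well. The PC3 calls of CHGB and SYT1 were each kept in 7 of 10 alternatives. The difference between the constructs was not itself tested between the lines. Whether an effect against eGFP differed between the lines was tested by interaction. The ETV4AAA effect differed for 13 of 26 members (9 more positive in 22Rv1, 4 more negative), against 16.2% of all tested genes, with a median of 0.50 over members and 0.04 over all genes. Among those more positive in 22Rv1 the largest were SYT11 (6.33 ± 0.39, adjusted p = 5.18e-07), CHGB (4.12 ± 0.57, adjusted p = 0.000421) and DLL3 (3.63 ± 0.28, adjusted p = 3.62e-06). SCG2 (2.63 ± 0.47, adjusted p = 0.00222) and PCSK1 (2.55 ± 0.50, adjusted p = 0.00441) were also more positive in 22Rv1, and POU3F2 was more negative (-1.80 ± 0.26, adjusted p = 0.000475). For SYT1 the ETV4AAA rise was 0.98 in both lines, and the difference did not pass (adjusted p = 1).

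The ETV4WT effect differed for 9 of 26 members (3 more positive, 6 more negative in 22Rv1), against 12.5% of all tested genes, with medians of -0.31 and 0.02. SCG3 (-3.38 ± 0.39, adjusted p = 0.000182) and SYT1 (-2.14 ± 0.27, adjusted p = 0.00035) were more negative in 22Rv1. Both rose in PC3 and did not pass in 22Rv1. CHGB, called with ETV4WT only in 22Rv1, gave no difference that passed (0.47 ± 0.45, adjusted p = 0.581), and neither did NCAM1 (-1.39 ± 0.93, adjusted p = 0.355). Without the 2 replicate 2 libraries of PC3, 8 members differed for ETV4WT and 11 for ETV4AAA.

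**Figure D4:**
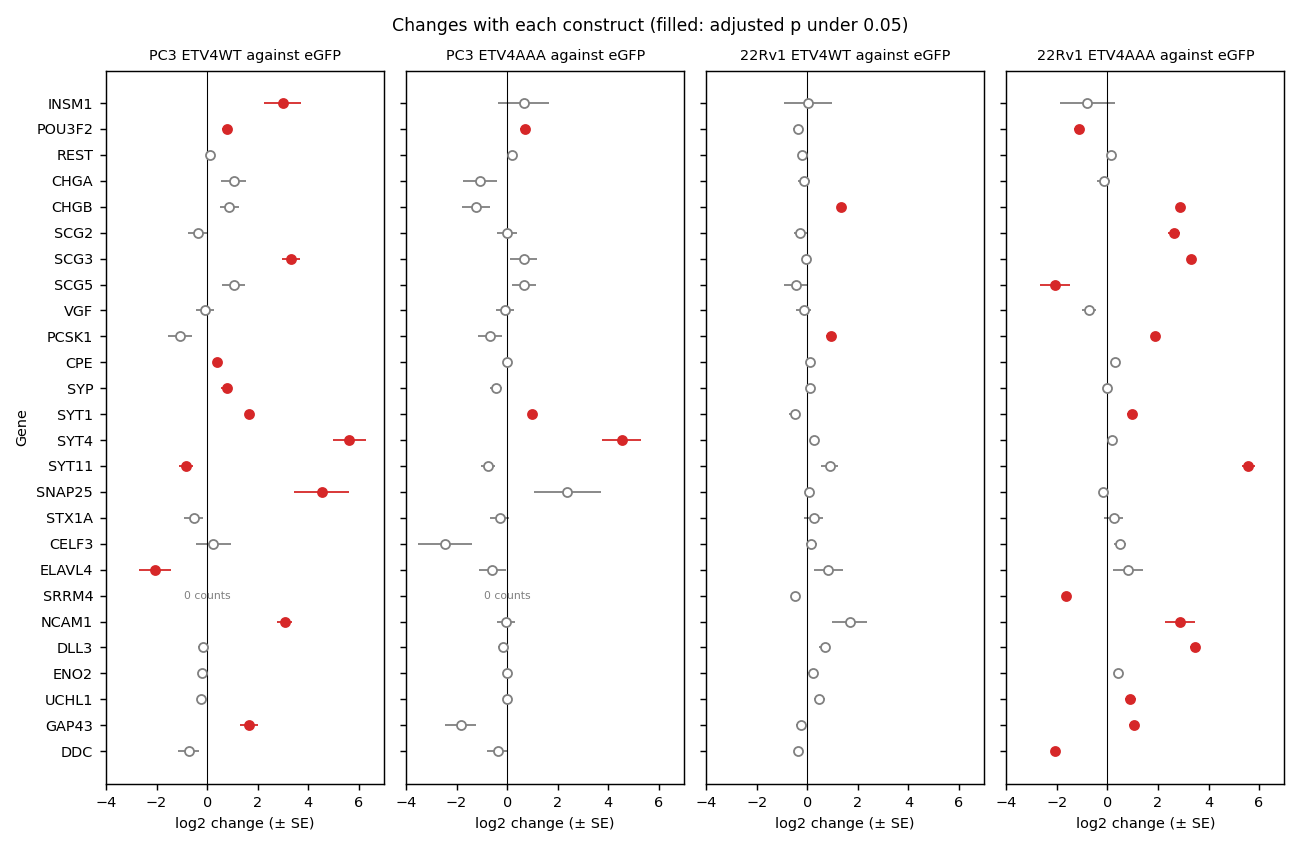
Log2 change with its standard error (horizontal axis) of the 26 tested genes (vertical axis), 1 panel for each construct against eGFP in each line, red and filled where the adjusted p is under 0.05. SRRM4 had 0 counts in PC3, and the points of SYT4 and SNAP25 in PC3 rest on 1 and 0 counts with eGFP, so their positions are no measured fold. The first and last panels hold most filled points, 12 and 14, against 3 and 2 in the middle panels.

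Other genes of the pathway were counted in 7 lists, to be read against the share of all tested genes called, 31.8% in 22Rv1 ETV4AAA and 23.4% in PC3 ETV4WT. These lists were also chosen with earlier results of these data known, so their shares are descriptive only. Neuroendocrine fate factors rose for 8 and fell for 2 of 14 tested in 22Rv1 ETV4AAA (71.4% called, against 31.8%). FOXA2, a pioneer factor, went from 0.164 and 0.0824 to 12.9 and 10.1 CPM (6.51 ± 0.33, adjusted p = 3.33e-08) and SOX11 from 0.246 and 0.165 to 13.8 and 10.1 CPM (5.84 ± 0.31, adjusted p = 4.05e-07). SOX2 rose (2.58) and ONECUT2 fell (-1.25). In 22Rv1 ETV4WT, SOX11 (2.43 ± 0.36, adjusted p = 0.00845) and FOXA2 (2.01 ± 0.41, adjusted p = 0.0346) were the 2 of 14 that rose, and 0 fell (5 were lower at an unadjusted p under 0.05, 1 by DESeq2). In PC3 ETV4WT 7 rose and 1 fell (57.1%, against 23.4%), among them PROX1 (1.65), MYCL (1.60), SOX2 (1.76) and LHX2 (3.18). The uncalled factors of highest level were MYCL in 22Rv1 ETV4AAA (0.22 ± 0.20, adjusted p = 0.452) and ONECUT2 in PC3 ETV4WT (0.39 ± 0.17, adjusted p = 0.124).

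Secretory granule genes rose for 9 and fell for 2 of 19 in 22Rv1 ETV4AAA (57.9%, against 31.8%). CADPS2, which primes dense-core vesicles, went from 26.8 and 28.8 to 182 and 179.8 CPM (2.70 ± 0.14, adjusted p = 5.78e-08), and PAM, the peptide-amidating enzyme, from 11.1 and 11.6 to 55.3 and 56.4 CPM (2.30 ± 0.13, adjusted p = 9.75e-08). SLC18A1, a vesicular monoamine transporter, went from 0 to 1343 counts per group, at least 499.5-fold higher, and reached 15.7 and 15 CPM. In PC3 ETV4WT 3 rose and 3 fell (31.6%, against 23.4%), with RAB3B, a secretory Rab GTPase, at 0.282 and 0.365 CPM with eGFP and 2.51 and 3.38 CPM with ETV4WT (3.18 ± 0.24, adjusted p = 5.21e-06), and RAB3A lower (-2.09 ± 0.32, adjusted p = 0.000634). PCSK6, a proprotein convertase, rose (0.94) and RAB3D fell (-0.87). The uncalled genes of highest level were PAM in PC3 (0.14 ± 0.12, adjusted p = 0.43) and the carboxypeptidase CPD in 22Rv1 ETV4AAA (0.13 ± 0.15, adjusted p = 0.539).

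Peptide hormones rose for 4 and fell for 3 of 15 in 22Rv1 ETV4AAA (46.7%, against 31.8%). The rises were in ADM (2.78), STC1 (2.32), PTHLH (2.02) and CCK, which encodes cholecystokinin and went from 0.082 and 0.0206 to 3.95 and 3.87 CPM (6.18 ± 0.40, adjusted p = 4.25e-06). The falls, named after their values were seen, were in the bombesin-like peptide NMB, from 76.1 and 68.5 to 39.8 and 42.9 CPM (-0.81), in NMU, which encodes neuromedin U, from 34.7 and 39 to 15.8 and 16.4 CPM (-1.20), and in CALCA (-0.72). In PC3 ETV4WT VIP (3.83 ± 0.65, adjusted p = 0.00173) and STC1 (1.41) rose, and ADM (-1.01) and ADCYAP1 (-1.05) fell, of 15 (26.7%, against 23.4%). Of 23 exocytosis genes 3 were higher and 3 lower in 22Rv1 ETV4AAA, 26.1% and so near the 31.8% of all genes. In PC3 ETV4WT 6 rose and 4 fell (43.5%, against 23.4%), and the rises included UNC13A, a vesicle priming factor (0.543 and 0.451 CPM against 4.14 and 4.56 under ETV4WT, 3.12 ± 0.27, adjusted p = 1.03e-05), and SV2A (2.69 ± 0.30, adjusted p = 6.55e-05). SYT2 rose (2.41) and the active-zone gene RIMS1 fell (-1.41). In 22Rv1 ETV4AAA SYN1 (1.08) and SV2A (1.07) rose, and UNC13B (-0.78) and CPLX2 (-1.08) fell.

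Of 15 genes of the REST complex, 1 fell and 0 rose in 22Rv1 ETV4AAA (PHF21A, -0.40 ± 0.12, adjusted p = 0.0245), with 3 lower and 0 higher at an unadjusted p under 0.05, and 1 and 0 by DESeq2. In PC3 ETV4WT EHMT2 (-1.0) and HDAC1 (-0.32) fell and 0 rose (1 was higher at an unadjusted p under 0.05, 0 by DESeq2). Neuronal cytoskeleton and adhesion genes rose for 6 and fell for 3 of 21 in PC3 ETV4WT (42.9%, against 23.4%), where the neurofilament NEFM went from 4.71 and 4.53 to 40.4 and 45.9 CPM (3.22 ± 0.26, adjusted p = 7.53e-06) and the adhesion genes NRCAM (2.84), CNTN1 (3.50) and CNTNAP2 (2.39) rose. The neurofilament NEFL, at a higher level, fell from 165 and 170.3 to 62.3 and 62.4 CPM (-1.43 ± 0.16, adjusted p = 7.48e-05). In 22Rv1 ETV4AAA 4 rose and 6 fell (47.6%, against 31.8%), and CNTN1 (2.35), CHL1 (2.55) and NRCAM (1.48) were among the rises. Among the falls DPYSL3 went from 166 and 168 to 83.4 and 81.9 CPM (-1.01), the neurofilament NEFH from 65.5 and 68.9 to 38.6 and 39.4 CPM (-0.78) and the microtubule protein MAP2 from 61.5 and 68.5 to 36.6 and 35.6 CPM (-0.85). NEFL, NEFH and MAP2 were named after their values were seen. Neuronal RNA-binding genes rose for 4 and fell for 1 of 13 in PC3 ETV4WT (38.5%, against 23.4%), with NOVA2 (3.83 ± 0.49, adjusted p = 0.000188) and MSI1 (2.28) among them, and RBFOX2 (0.52). SRRM3, a relative of SRRM4, had 33 counts there against 1 under eGFP (ratio 30.7, 95% exact interval 5.13 to 1247). In 22Rv1 ETV4AAA 3 rose and 1 fell, 30.8% and so near the 31.8% of all genes, and RBFOX3, the gene of the neuronal antigen NeuN, went from 3 to 65 counts per group (ratio 24.2, 95% exact interval 7.92 to 120.3). NOVA2 (2.58) and NOVA1 (0.44) also rose and PTBP2 fell (-0.63). PTBP1, a repressor of neuronal exons, was the highest uncalled gene in both comparisons (-0.65 ± 0.23, adjusted p = 0.0569 in PC3 and -0.30 ± 0.23, adjusted p = 0.356 in 22Rv1).

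Few of all tested genes were called in the remaining comparisons with eGFP, 3.69% in PC3 ETV4AAA and 1.5% in 22Rv1 ETV4WT. Calls by list ran from 0% of RNA-binding genes to 10.5% of granule genes in PC3 ETV4AAA. They were 14.3% of fate factors in 22Rv1 ETV4WT. In PC3 ETV4AAA FOXA2 (1.03 ± 0.21, adjusted p = 0.018), STC1 (2.34 ± 0.34, adjusted p = 0.00264), PCSK5 (0.96), RAB3B (1.17) and RCOR1 (0.73) rose, and RIMS1 (-1.21) and BASP1 (-1.48) fell, with 0 calls among the 13 RNA-binding genes (2 higher and 0 lower at an unadjusted p under 0.05, 1 and 0 by DESeq2). FOXA2 there was 12.1 and 13.6 CPM under eGFP and 28.2 and 24.3 CPM under ETV4AAA, without overlap. In 22Rv1 ETV4WT the 6 lists other than fate factors had 0 calls by edgeR. At an unadjusted p under 0.05, granule genes there gave 5 higher and 0 lower (1 and 0 by DESeq2), cytoskeleton genes 0 and 5 (0 and 1), peptides 1 and 1 (0 and 0), REST complex genes 0 and 2 (0 and 0), RNA-binding genes 0 and 1 (0 and 0), and exocytosis genes 0 and 0 by either tool.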

How the data were processed

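RNA was sequenced on a NextSeq 500 after poly(A) enrichment, per the labels' protocols. The submitters' processing notes name FastQC 0.11.9, STAR 2.5.3a and the build GRCh38. The authors deposited raw counts per Ensembl gene, with the counting program, strand setting and annotation not given in the sources used here. IDs were matched to GENCODE 29 (99.55% matched).

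Counts were analysed with edgeR 4.0.16 in R 4.3.3. Genes passing filterByExpr (23238) were scaled by TMM and fitted over all 12 libraries with 1 mean per group, and tested by quasi-likelihood with 6 residual degrees of freedom (biological coefficient of variation 0.149). Benjamini-Hochberg adjustment ran over all genes tested and calls are at 0.05. The standard error is the log2 change divided by the square root of F. Where a group summed to 0 its fold is a bound from 3 counts in that group. Where it summed to 1 to 3, a ratio of pooled counts carries a 95% exact binomial interval. The script was tested on simulated data. Alternatives were DESeq2 1.42.0 (size factors, Wald test), no filter, each line alone, a replicate block, and libraries left out.

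Members and lists were chosen with earlier results of these data known. All members are eligible to be named, with, from each other list and comparison, up to 4 called genes of lowest adjusted p and the uncalled gene of highest CPM. Marker genes with printed values were named outside that rule where it did not reach them, and some list genes are not reported here. Promoter sequences come from RefSeq (GRCh38.p14).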

Additional observations from a re-analysis of the deposited data

Results flagged for a closer look

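Effects that differed between the lines by the interaction test (edgeR, adjusted p under 0.05) follow as the log2 effect in 22Rv1 minus that in PC3. For ETV4WT they were -1.16 for POU3F2, -3.38 for SCG3, 2.00 for PCSK1, -2.14 for SYT1, -5.34 for SYT4, 1.74 for SYT11, -4.45 for SNAP25, 2.89 for ELAVL4 and -1.89 for GAP43. The values of SYT4 and SNAP25 rest on 1 and 0 counts in PC3 eGFP and are no measured fold. The SNAP25 and ELAVL4 differences were each lost with any 1 of the 8 libraries compared left out, and that of PCSK1 in 9 of 13 alternatives.

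For ETV4AAA they were -1.80 for POU3F2, 4.12 for CHGB, 2.63 for SCG2, 2.66 for SCG3, -2.72 for SCG5, 2.55 for PCSK1, -4.36 for SYT4, 6.33 for SYT11, 2.93 for NCAM1, 3.63 for DLL3, 0.92 for UCHL1, 2.89 for GAP43 and -1.70 for DDC. The value of SYT4 rests on 1 count in PC3 eGFP, and that of GAP43 on 3 counts in PC3 ETV4AAA. POU3F2, CHGB, SCG2, SYT4, SYT11 and DLL3 differed between the lines in all 13 alternatives tried, and the other 7 did not.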

How the results depend on the processing

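Of 2335 log2 changes of single members recomputed under an alternative, 2173 kept their side of the threshold, 133 lost a call, 29 gained one and 0 reversed. Of 92 counts of members called, 77 stayed within 1.5 times. With each line fitted on its own, 7 members were called in PC3 ETV4WT against eGFP and 5 in PC3 ETV4AAA against ETV4WT. With 1 library left out, the counts ranged from 5 to 9 in PC3 ETV4WT, 0 to 3 in PC3 ETV4AAA, 4 to 8 for ETV4AAA against ETV4WT in PC3, 1 to 2 in 22Rv1 ETV4WT, 12 to 14 in 22Rv1 ETV4AAA, 10 to 11 for ETV4AAA against ETV4WT in 22Rv1, 22 to 23 between the eGFP lines, 4 to 7 for the ETV4WT difference between lines and 8 to 14 for the ETV4AAA difference. A group left with 1 library is assumed to vary like the others.

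Over all genes, calls with no low-count filter numbered 2152 against 858 in PC3 ETV4AAA, 904 against 348 in 22Rv1 ETV4WT and 4436 against 2903 for the ETV4WT difference between lines. With each line on its own they were 466 in PC3 ETV4AAA and 1657 against 2550 for ETV4AAA against ETV4WT in PC3. With 1 library left out they ranged from 2553 to 6265 against 5434 in PC3 ETV4WT, 213 to 2253 in PC3 ETV4AAA, 1648 to 1887 for ETV4AAA against ETV4WT in PC3, 119 to 325 in 22Rv1 ETV4WT, 3437 to 4172 against 5455 for ETV4AAA against ETV4WT in 22Rv1, 1425 to 4342 for the ETV4WT difference and 2317 to 4685 against 3766 for the ETV4AAA difference. Without both PC3 replicate 2 construct libraries, 1341 genes were called for ETV4AAA against ETV4WT in PC3. DESeq2 size factors moved the median of all genes by at most 0.0753. The ETV4WT and ETV4AAA differences between lines were not run with each line on its own.

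Replicate numbers did not pair the libraries across all groups of a line, but same-numbered libraries of some groups deviated alike. Their deviations correlated at 0.877 between PC3 ETV4WT and ETV4AAA, and at 0.589 between 22Rv1 eGFP and ETV4AAA. PC3 eGFP gave -0.391 with ETV4WT and -0.393 with ETV4AAA. In 22Rv1, ETV4WT gave -0.373 with eGFP and -0.455 with ETV4AAA. With a replicate block the counts of members called were 13 in PC3 ETV4WT, 3 in PC3 ETV4AAA, 8 for ETV4AAA against ETV4WT in PC3, 2 in 22Rv1 ETV4WT, 15 in 22Rv1 ETV4AAA, 12 for ETV4AAA against ETV4WT in 22Rv1, 23 between the eGFP lines, and 9 and 13 for the differences between lines. Over all genes the replicate block called 6296, 868, 2517, 351, 7421, 5503, 15436, 3658 and 4066, in that order. With 2 libraries per group, members below 0.1 CPM rest on a few counts.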
